A study of Mus musculus with 4 samples.

Results

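Splicing of pre-mRNA was described in thymocytes of 2 wild-type mice, from the reads that cross exon-exon junctions. The files listed 1921627 junctions, and a junction was kept where it had at least 10 reads summed over the 2 wild-type libraries. This left 85981 junctions in 9884 of the 18994 genes listed. Of these, 84532 were marked as known and 1449 as putative by the authors. The members were chosen by these read sums, so the read numbers below are a description. At the edge of the rule, 1879 known and 142 putative junctions had exactly 10 reads, and 2004 known and 189 putative junctions had 9.

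The series also holds libraries from hnRNP L knockout mice, which were not compared here. Each library came from the total thymocytes of 1 mouse, called mouse 1 and mouse 2 for wild-type replicates 1 and 2. The labels give the wild-type and the knockout mice the same mixed background of CD45.1, C57BL/6, an LckCre transgene, in which Lck promoter sequence drives Cre in T-lineage cells, and the reporter Gt(ROSA)26Sortm4(ACTB-tdTomato,-EGFP)Luo. Which of these alleles each wild-type mouse carried, and how old it was, the sources used here do not say. Ribosomal RNA was removed, RNA was cut with RNase III, and fragments of 150 to 300 bp were amplified over 12 PCR cycles and sequenced on a SOLiD instrument.

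Splicing removes an intron by joining a donor site at the end of one exon to an acceptor site at the start of a later one. An exon that some transcripts keep and others leave out is a cassette exon. Inclusion stands for the share of transcripts that keep it, and is estimated below from junction reads at the exon. Exons can also be shortened at a rival donor or acceptor, and some pairs of exons are used one at a time. In developing T cells, such choices are known to shape surface receptors, signalling proteins and transcription factors, and many splicing factors regulate the splicing of their own transcripts.

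Mapped reads, per the file headers, numbered 99782558 in mouse 1 and 122619310 in mouse 2, and junction reads numbered 4759678 and 6146421, or 4.77% and 5.01% of them. Across the kept junctions, which are not independent replicates, log2 of (RPM + 0.1), RPM being reads scaled to the library's junction total, correlated at 0.884 between the mice. The 15 thymocyte markers had between 14.2 and 889.8 RPKM (a read density that allows for transcript length and library depth), and all 15 genes had a kept junction. Markers of other cells summed to 10.2 and 11.0 RPKM for B cells, 35.5 and 36.1 for myeloid cells, 41.6 and 37.3 for erythroid cells, and 13.5 and 11.9 for thymic stroma, with no listed marker at 0 in both mice. Adipose markers summed to 1.39 and 3.15 RPKM, with Fabp4 at 1.20 and 2.62 and Plin1 at 0 in mouse 1. In bulk RNA, a change in the number of cells of a type cannot be told apart from a change of RNA per cell. Small RNA genes took 6.50% of gene reads in mouse 1 and 1.09% in mouse 2, so the 2 libraries differed in composition. The part of this in the differences between the mice was not tested.

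Known junctions carried nearly all of the spliced reads. Putative junctions held 1.16% of junction reads in mouse 1 (exact 95% interval 1.15 to 1.17%) and 1.15% in mouse 2 (1.15 to 1.16%). These intervals, and those below, hold counting error alone, because reads copied by PCR count more than once. Of the known junctions kept, 99.8% were read in both mice, and their introns had a median length of 1259 nt. The most read known junction was in Eef1a1, which delivers aminoacyl-tRNA to the ribosome, with 16280 and 20235 reads across a 950-nt intron at chr9:78328495-78329446 (mm9; the 2 positions are the exon bases that flank the intron). Actb, cytoplasmic actin, had 9385 and 9589 reads, and Hspa8, the constitutive HSP70 chaperone, had 5007 and 7644. Among T cell genes, Tcf7 reached 4530 and 5893 reads on its best junction, and Thy1, a glycoprotein of the T cell surface, reached 2463 and 5181. The 2 libraries were not equal in these levels, with Thy1 higher and Actb lower in RPM in mouse 2 (842.9 against 517.5, and 1560.1 against 1971.8).

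Introns at both extremes of length were spliced. Kept known junctions spanned more than 100000 nt in 111 cases. The longest was an 892220-nt intron of Immp2l, a subunit of the mitochondrial inner membrane peptidase, with 5 and 11 reads. Deeper support was found for a 177888-nt intron of Exoc4, a subunit of the exocyst, with 74 reads in each mouse, and for a 170102-nt intron of Msi2, an RNA-binding protein, with 54 and 58. At the other end, 5388 known junctions spanned at most 100 nt. A 56-nt intron of Hnrnph1, an hnRNP that binds G-rich RNA, had 87 and 152 reads, and a 65-nt intron of Prim1, the catalytic primase subunit, had 192 and 184. The listed gaps of 10, 11 and 16 nt in Gm10391_dup1, Gm13363 and A130040M12Rik had 96, 18 and 98 reads over both mice.

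Few of the exons measured met the read minimum for an alternative cassette exon. An exon counted as alternative where the junctions into it, out of it and across it each had at least 10 reads over the 2 mice. This held for 947 exons in 818 genes, or 1.42% of the 66569 internal exons with at least 10 reads on a known junction at each side. The skipping junction was known for 237 exons and putative for 710. Known junctions kept had a median of 53 reads over both mice, so skips used by few transcripts could fall below the minimum. Inclusion was computed as the mean of the 2 inclusion junctions over that mean plus the skipping reads. Only 1 skipping junction, between the same flanking sites as the inclusion junctions, entered each value. Longer skips and skips between other sites were left out. Where an exon had several such versions, the one with the most reads on its less used form was kept. Exons with a known skip had a median of 55.2% in mouse 1 and 52.5% in mouse 2, and exons with a putative skip of 85.8% and 84.7%. The medians of the mean over both mice were 53.5% and 85.0%. Inclusion between 20 and 80% was found for 169 of 237 exons with a known skip and for 283 of 710 with a putative one. Above 90%, the numbers were 14 and 243. Exons with a known skip were thus often near the middle of the range, and exons with a putative skip mostly had high inclusion.

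Length in multiples of 3, which leaves the reading frame of a coding exon intact when it is skipped, was found for 68.8% of exons with a known skip. It was found for 45.2% of those with a putative skip and for 38.5% of all 66569 internal exons measured. Among exons that were wholly coding in a matched GENCODE M21 transcript, the values were 147 of 180 (81.7%) and 286 of 607 (47.1%). Short exons of at most 51 nt made up 14.8% of the known-skip group, 7.46% of the putative-skip group and 3.95% of all exons measured. The 2 sides of an exon did not always give the same value: inclusion from the upstream and from the downstream junction differed by a median of 8.73 points, and by over 20 points for 202 of 947 exons.

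**Figure D1:**
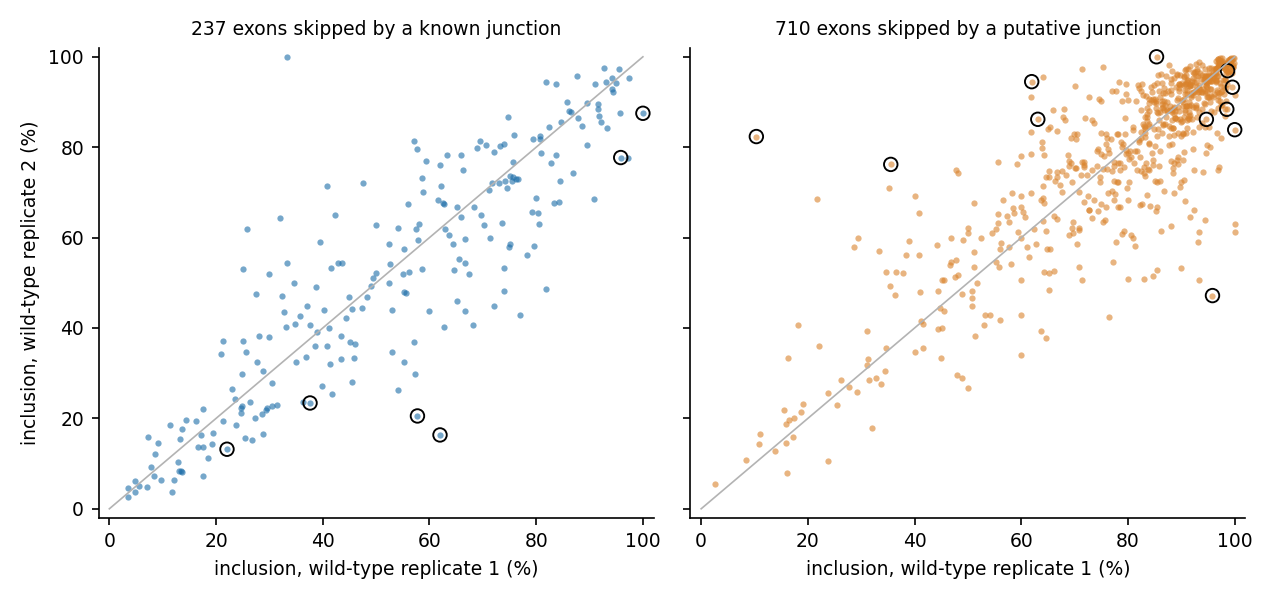
Inclusion (%) of each alternative cassette exon in wild-type replicate 1 (x axis) and 2 (y axis), for 237 exons skipped by a known junction and 710 skipped by a putative one; the line marks equal values and rings mark the 17 exons that differed between the mice by Fisher's exact test. The known-skip exons spread over the whole range, and the putative-skip exons gather near full inclusion.

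T cell genes supplied several of the most read cassette exons. Their sequences are shown to let the reader see which bases are kept or lost, 5′ to 3′, from GENCODE M21 transcripts matched by gene and by exon and intron length. The exons of Cd8a (chr6:71325882-71325912, exon 4 of the matched transcript), Dntt (chr19:41133057-41133116, exon 11) and Lat (chr7:133511700-133511729, exon 6) are coding, with positions in mm9.
Cd8a exon, 31 nt: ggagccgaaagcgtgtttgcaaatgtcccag
Dntt exon, 60 nt: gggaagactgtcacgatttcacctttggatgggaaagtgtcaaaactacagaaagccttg
Lat exon, 30 nt: ccaacagtgtggcaagctacgagaaccagg

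Cd8a encodes the alpha chain of the CD8 coreceptor, and skipping of this exon is known to give a form without the cytoplasmic tail. The 31-nt exon was skipped by 848 reads in mouse 1 and 1280 in mouse 2, with 428 and 719 reads into it and 1103 and 1325 out of it. Inclusion was 47.4% and 44.4%, a mean of 45.9% ± 2.15 (SD, n = 2), so both forms were abundant in both mice. The upstream side alone gave 33.5% and 36.0%, and the downstream side alone 56.5% and 50.9%. The mouse with the higher value thus changed with the side, and the SD does not hold the gap between the sides. Dntt encodes terminal deoxynucleotidyl transferase, which adds untemplated bases at V(D)J joints, and a long form carries a 60-nt insert. That exon had inclusion of 4.87% and 6.20%, with 3025 and 2899 skipping reads, so the long form was the minor one in each mouse. Lat is the membrane adaptor that links the T cell receptor to downstream signalling. Its 30-nt exon had inclusion of 90.9% and 93.9%, with 62 and 48 skipping reads on a putative junction that GENCODE M21 lists.

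Other T cell genes covered the full range. Bcl11b, a zinc-finger factor needed for T cell commitment, kept its 216-nt exon 3 at 23.7% and 18.6%, with 174 and 478 skipping reads. Cd6, a scavenger receptor family member of the T cell surface, kept a 117-nt exon at 71.7% and 72.1%. Ets1, a DNA-binding factor of lymphocytes, kept a 261-nt exon at 86.1% and 88.0%. Of these 3, Cd6 had the closest values in the mice and Bcl11b the widest relative gap. Ccr9, a chemokine receptor that binds CCL25, had a 68-nt exon that is not coding, with inclusion of 37.6% and 23.4%. Ptprc encodes CD45, whose variable exons are known to be alternatively spliced in T cells. Its 141-nt exon 6 had inclusion of 11.1% and 16.6%, with 72 and 73 reads that skipped it. The upstream side alone gave 8.86% and 9.88%, and the downstream side alone 13.3% and 22.3%.

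Ikaros, the product of Ikzf1, is a lymphoid factor whose zinc-finger exons are known to be alternatively spliced. Its 123-nt exon 5 had inclusion of 88.0% and 91.8% and its 135-nt exon 6 of 86.9% and 89.4%, both with putative skipping junctions that GENCODE M21 does not list. Another putative junction, at chr11:11654177-11668884, left out these 2 exons of Ikzf1 together, with 54 and 50 reads. These reads enter neither of the inclusion values above, which would be lower with them. Tcf12, which encodes the E protein HEB, kept a 72-nt exon at 13.8% and 12.8%, with 218 and 265 skipping reads. The upstream side alone gave 22.4% and 20.4% and the downstream side 3.11% and 3.64%. Macf1, a linker of actin and microtubules, kept a 63-nt exon at 8.31% and 10.8%. These last 2 exons had low inclusion in both mice although the skipping junction was not in the authors' known set.

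Splicing regulators formed another set. Hnrnpab and Hnrnpd encode related hnRNPs with a glycine- and tyrosine-rich tail, and each had a coding exon there of similar length, shown here to set the 2 side by side.
Hnrnpab exon, 141 nt: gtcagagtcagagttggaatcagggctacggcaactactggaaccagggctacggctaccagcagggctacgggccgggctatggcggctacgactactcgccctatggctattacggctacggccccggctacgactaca
Hnrnpd exon, 147 nt: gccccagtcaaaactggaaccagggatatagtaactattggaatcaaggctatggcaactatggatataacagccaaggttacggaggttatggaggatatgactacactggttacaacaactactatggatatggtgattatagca

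The Hnrnpab exon (chr11:51415252-51415392) had inclusion of 41.2% and 40%, and the Hnrnpd exon (chr5:100392750-100392896) of 49.0% and 49.2%. The values of the mice lay close together at both exons. Hnrnpa2b1 kept a 120-nt exon at 74.5% and 71.0%, and Hnrnpk a 72-nt exon at 88.9% and 88.0%. Pcbp2, a poly(C)-binding protein, kept a 93-nt exon at 48.2% and 47.0%, or at 22.5% and 25.1% from the upstream side and 61.1% and 58.9% from the downstream side. Raly, an hnRNP of the hnRNP C family, kept an 83-nt exon that is not coding at 76.2% and 73.0%.

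Regulators with well-known self-regulated or switch exons were also split between forms. Ptbp1, the polypyrimidine tract-binding protein, had inclusion of 33.1% and 40.2% at its 78-nt exon and of 93.0% and 96.8% at its 34-nt exon. The upstream side alone gave 39.7% and 47.7% at the 78-nt exon and 95.8% and 98.1% at the 34-nt exon. The downstream side alone gave 24.9% and 30.2%, and 77.4% and 89.3%. The Ptbp1 paralog Rod1 also had a 34-nt cassette exon, but at another place: exon 2 of its matched transcript, against exon 9 in Ptbp1. The 2 are thus not set against each other. The Rod1 exon had inclusion of 13.5% and 8.09%, and of 0% and 5.38% from the downstream side alone, which had 0 and 10 reads. The kinases Clk1 and Clk4, which phosphorylate SR proteins, each had a 91-nt exon, kept at 43.7% and 54.4% in Clk1 and at 41.2% and 41.6% in Clk4. The upstream side gave 54.5% and 62.6% in Clk1 and 54.5% and 54.8% in Clk4, against 26.2% and 41.6%, and 16.7% and 17.5%, from the downstream side. Mbnl1 and Mbnl2 encode muscleblind proteins and each had a 95-nt exon. Inclusion was 96.0% and 95.4% in Mbnl1 against 16.4% and 33.3% in Mbnl2, but the sides of these exons gave different values. The upstream side alone gave 60.7% and 47.0% in Mbnl1, and the downstream side alone gave 17.9% and 42.9% in Mbnl2, so the size of the gap between the paralogs rests on the side used. Celf2 kept a 144-nt exon at 54.1% and 62.1%, and Tia1 a 33-nt exon at 56.2% and 52.5%. The upstream side alone gave 45.6% and 41.9% in Celf2 and 65.9% and 61.9% in Tia1. The downstream side alone gave 60.4% and 71.9% in Celf2 and 39.1% and 36.8% in Tia1. In Celf2, the mouse with the higher value thus changed with the side.

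Among the SR proteins, which bind exons and recruit the spliceosome, Srsf7 had a 36-nt coding exon with inclusion of 80.9% and 78.7%. Its 460-nt exon, found only in GENCODE transcripts that are not protein coding, had inclusion of 13.4% and 8.28%. Srsf3 had a similar exon of 456 nt, with 45 and 236 skipping reads and inclusion of 57.7% and 20.5%. This kind of exon carries a premature stop and is known to lower the level of its own gene's protein. The values were near each other in the mice for Srsf7 and far apart for Srsf3.

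Read by list, 818 of 9884 genes with a kept junction, or 8.28%, had an alternative cassette exon. The share was 3 of 16 SR proteins and relatives, 23 of 60 hnRNPs and other regulators, 27 of 76 T cell genes, 10 of 31 textbook switch genes and 0 of 17 actin and adhesion genes. For exons with inclusion of 10 to 90% in both mice, the counts were 3, 20, 13, 7 and 0, against a background of 5.31% of genes. Among genes with at least 5 kept junctions and a median of at least 100 reads on them, the background was 9.14%. There the counts were 2 of 9, 13 of 36, 10 of 44, 4 of 14 and 0 of 11. The lists were chosen with earlier results of these data known, so their counts are a description.

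**Figure D2:**
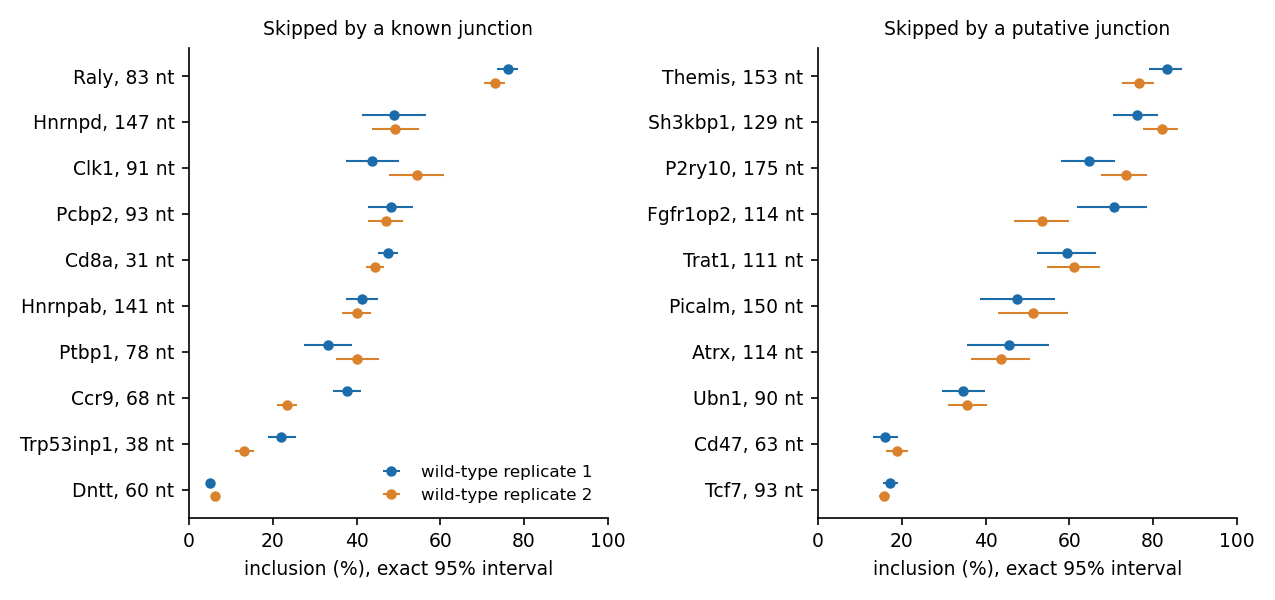
Inclusion (%) of the 10 most read alternative cassette exons with a known skip (left) and with a putative skip (right), ranked by the reads of the less used form, 1 per gene; points are the 2 wild-type mice and bars the exact 95% binomial intervals. Dntt has the lowest inclusion on the left, at 4.87 and 6.20%, and Tcf7 and Cd47 the lowest on the right.

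Exons of the textbook switch genes ranged from 9.09% in Add1 to 99.1% in Mknk2, a kinase of the translation factor eIF4E. Fxr1, an RNA-binding relative of FMRP, kept a 92-nt exon at 46.0% and 36.4%, or at 57.3% and 49.0% from the upstream side and 26.5% and 15.8% from the downstream side. Eif4h, a translation initiation factor, kept a 60-nt exon at 58.2% and 70.0%. Mdm2 and Mdm4 restrain p53. Mdm2 kept an 85-nt exon at 32.8% and 28.9%, and Mdm4 a 68-nt exon at 80.2% and 72.3%. Add1, an actin-capping adducin, kept a 37-nt exon at 9.09% and 14.5%, and the downstream side alone gave 2.91% and 11.2%. Rps6kb1, the S6 kinase, kept an exon at 96.5% and 96.6%, and Mef2d, a MADS-box transcription factor, kept one at 85.5% and 87.9%.

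The authors' list of putative junctions was made up almost wholly of sites that known junctions use: 99.8% of all those listed, read or not, start at a known junction start, and 99.8% end at a known junction end. Of the 1449 kept, 1441 had both ends at such sites, which is near that background, and 98.0% were read in both mice. They lay in 1125 of the 9884 genes with a kept junction, or 11.4%, and their introns had a median length of 6918 nt. They held 0.644% of the reads on kept junctions in mouse 1 and 0.595% in mouse 2. An intron of the same gene and length was present in GENCODE M21, a later annotation, for 46.2% of them. The share was 99.8% for known junctions and 0.429% for the putative junctions with 0 reads.

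The number of known exons between the joined sites split the putative junctions into distinct groups. One exon was skipped by 955, of which 62.7% had a match in GENCODE M21. Skips of 2 exons numbered 122 (36.9% matched), skips of 3 to 4 exons 55 (20%), and skips of 5 or more exons 288 (1.04%). The other 29 had no path of known junctions between their ends, and 41.4% of these matched.

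The most read single-exon putative skips lay in Tcf7 and Cd47. Tcf7 encodes the Wnt-pathway and T cell factor TCF-1, and Cd47 encodes a surface protein that restrains phagocytosis. The exons they leave out are shown because their inclusion was low in both mice.
Tcf7 exon, 93 nt: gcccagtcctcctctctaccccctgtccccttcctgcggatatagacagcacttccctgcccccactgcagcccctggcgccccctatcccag
Cd47 exon, 63 nt: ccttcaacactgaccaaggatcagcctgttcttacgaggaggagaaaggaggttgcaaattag

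In Tcf7, a junction at chr11:52071305-52074033 had 1420 and 2394 reads and skipped the 93-nt coding exon at chr11:52072355-52072447. Inclusion was 17.2% and 15.8%, a mean of 16.5% ± 0.95 (SD, n = 2). GENCODE M21 lists the exon but no intron of the length of that junction. From the upstream side alone, inclusion was 20.2% and 13.9%, and from the downstream side alone 13.8% and 17.7%. The mouse with the higher value thus changed with the side. In Cd47, the skipping junction had 548 and 694 reads and matches GENCODE M21, and the 63-nt exon at chr16:49869131-49869193 had inclusion of 16.0% and 18.7%, or of 14.2% and 11.3% from the downstream side alone. Low inclusion was thus repeated in both mice for both genes.

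Further genes with a strong putative skip had higher inclusion. Trat1, an adaptor of the T cell receptor complex, kept a 111-nt exon at 59.4% and 61.2%. Themis, needed for positive selection of thymocytes, kept a 153-nt exon at 83.3% and 76.6%. Ubn1, a subunit of a histone chaperone complex, kept a 90-nt exon at 34.7% and 35.6%. Atrx, a chromatin remodeller, kept a 114-nt exon at 45.5% and 43.7%, and Picalm, a clathrin assembly protein, a 150-nt exon at 47.6% and 51.4%. Values in the mice lay close together for each of these 5 exons, with the widest gap in Themis. Cd8b1 and Cd3g, which encode the CD8 beta chain and CD3 gamma, had inclusion of 98.7% and 96.9% (Cd8b1) and of 98.0% and 97.9% (Cd3g) at a 90-nt and a 132-nt exon. Their putative skips rested on 31 and 84 reads in Cd8b1, which is among the exons that differed between the mice, and on 35 and 36 in Cd3g.

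Skips of 5 or more exons stood apart from the rest in strand. Of these 288 junctions, in 234 genes, 239 lay on the plus strand and 49 on the minus strand, or 83.0% plus. Single-exon skips were 49.3% plus and known junctions 49.5%. With 1 to 9 reads, junctions that skip 5 or more exons were 52.0% plus (10838 of 20844), and of all putative junctions listed 48.8% were. With at least 10 reads in 1 library, the share was 89.9% in mouse 1 (138 junctions) and 88.4% in mouse 2 (190 junctions). The excess of the plus strand was thus present in each mouse, and the share was higher among the better read long skips. The sources used here name no aligner, and its part in this was not tested.

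**Figure D3:**
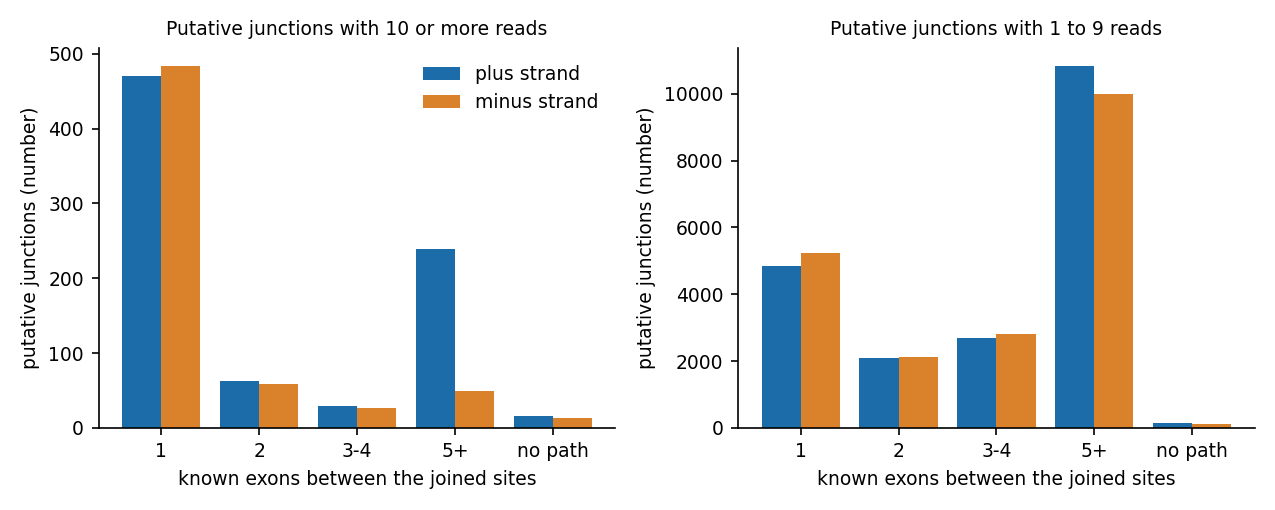
Number of putative junctions by the known exons between the joined sites and by strand, for the 1449 with at least 10 reads over both mice (left) and those with 1 to 9 reads (right). Plus and minus bars are of similar height except for skips of 5 or more exons on the left, with 239 against 49.

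The most read of all putative junctions was of this kind. Drosha encodes the nuclear ribonuclease that starts miRNA processing. A junction at chr15:12789214-12855961 had 4329 reads in mouse 1 and 2062 in mouse 2, spanned 66746 nt and passed over 20 known exons. It weighed on the group's reads: without Drosha, their share of kept putative reads was 20.4% in mouse 1, against 31.9% with it, and 20.03% in mouse 2, against 24.6%.

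For other long skips, the 15 exon bases on each side of the join are shown, with the downstream exon in capitals, so that the joined ends can be searched for.
Prpf8 junction: accacgttcaccaagATTGCAGGATACCTG
Rrm1 junction: atggccaataaggatCGCCCAGGCGCGTTT
Suz12 junction: tcttccacaaaaatgATTTATTGCTGACAA
Dync1h1 junction: ttgacactgatacagGTCTGAAGCTCCAAG

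Prpf8, a core protein of the spliceosome, had 291 and 279 reads on a junction that passed over 15 exons (chr11:75310581-75321776). Rrm1, the large subunit of ribonucleotide reductase, had 150 and 158 reads over 5 exons (chr7:109596415-109605666). Suz12, a subunit of Polycomb repressive complex 2, had 112 and 183 reads over 10 exons (chr11:79821064-79845347). Dync1h1, the dynein heavy chain, had 124 and 143 reads over 70 exons (chr12:111853287-111904504). None of these 4 had a match in GENCODE M21, and all 4 were read at similar numbers in both mice.

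A small number of putative junctions came from 1 mouse. Of the 1449, 5 were read in mouse 1 only and 24 in mouse 2 only, and 10 of these 29 skipped 5 or more exons. Lama3, a laminin chain, had 0 and 136 reads on a junction over 20 exons, and Kdm3b, a histone demethylase, had 0 and 77 over 16. The gene 1700061I17Rik had 87 and 0 reads on a single-exon skip. A junction of Trp63, the p53 relative of epithelial cells, had 156 reads in mouse 1 and 1 in mouse 2. Per library, a count of 0 was thus set against up to 136 reads in the other mouse.

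Among the sites listed, choice between acceptors of the same exon centred on a shift of 3 nt. The junctions listed use almost only sites of known junctions, so few rival sites outside that set could be counted. The distances thus describe annotated alternatives that were read. Junctions that share a donor and end at different acceptors within 1 exon formed 191 pairs in 175 genes, each with at least 10 reads on both junctions. The acceptors lay exactly 3 nt apart in 101 pairs, or 52.9%. The distance was a multiple of 3 for 80.1% of all pairs, and for 58.4% of the 89 pairs more than 3 nt apart. The less used acceptor took a median of 25% of reads in mouse 1 and 29.2% in mouse 2. Shares of rival sites, here and below, are of the reads on the 2 junctions of a pair. Further rivals do not enter them. Genes with such a pair or with rival donors numbered 270, or 2.73% of the 9884.

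The bases between the 2 acceptors are shown for pairs that led by reads, in the transcript that uses the upstream acceptor. The 12 bases before them end the upstream exon, the 3 capitals are kept only with the upstream acceptor, and 12 bases follow.
Txnip: agcagcctacagCAGgtgagaacgaga
Fau: tccgcgggctagTAGccaacatgcagc
Sdcbp: ccagcacaagggCAGttggtagcaaga
H2afy: cggaagtctaagAAGaagcagggagaa
Cd247: ggaggcaaacagCAGaggaggaggaac
Git2: gagggcagacagCAGcctggatttgtc
Dnmt1: gtgacaccctttCAGttgaaacttcac

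Both forms were found in GENCODE M21 transcripts for 88 of the 101 pairs, and in all 88 the 3 bases ended in AG. Acceptors are in general preceded by AG, so this ending follows from the second site being an acceptor. The bases were CAG in 66 pairs, AAG in 13, TAG in 8 and GAG in 1. The upstream acceptor was the more used one in 63 of the 101 pairs. It led in 36 of 66 pairs with CAG, 9 of 13 with AAG and 7 of 8 with TAG.

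Txnip, the thioredoxin-interacting protein, divided its reads almost evenly. Its upstream acceptor had 677 and 731 reads and the downstream one 609 and 599, or 47.4% and 45.0% for the less used site. Git2, a GTPase-activating protein, had the downstream acceptor at 47.5% and 50.9%, and Dnmt1, the maintenance DNA methyltransferase, at 49.2% and 46.1%. Cd247, the zeta chain of the T cell receptor complex, used the downstream acceptor for 11.7% and 11.2% of reads (110 and 100 reads). In H2afy, which encodes macroH2A, the upstream acceptor was the minor one, at 33.7% and 31.7%. Fau and Sdcbp used the downstream site for 15.3% and 13.5%, and for 13.7% and 18.1%. Shares near an even split and low shares were both repeated in the mice.

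Some rival acceptors lay further apart. Serbp1, an mRNA-binding protein, used an acceptor 45 nt upstream of its main one for 36.8% and 32.9% of reads (553 and 700 reads). Ivns1abp, a kelch protein, used acceptors 962 nt apart, with the less used at 46.3% and 50.1%. Gtf2i, a transcription factor, had acceptors 12 nt apart and the less used at 52.1% and 44.1%. Pcbp2 also had a 12-nt pair, at 39.4% and 44.9%.

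**Figure D4:**
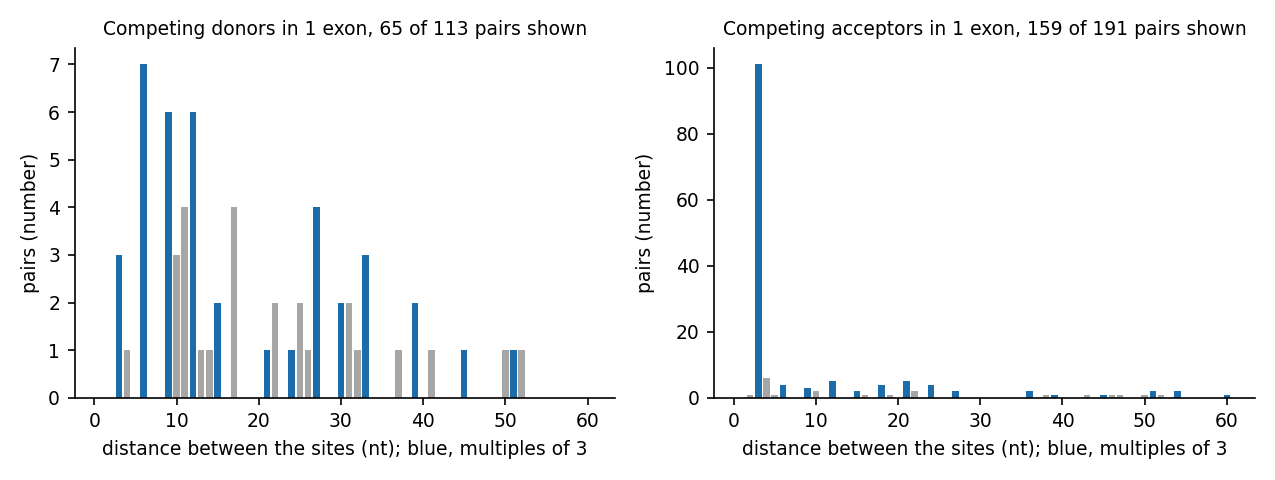
Distance (nt) between competing donors (left) and acceptors (right) of the same exon, up to 60 nt, which covers 65 of 113 donor pairs and 159 of 191 acceptor pairs; blue bars are multiples of 3. The bar at 3 nt holds 101 acceptor pairs and 3 donor pairs, on vertical axes of different scale.

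Among the sites listed, donors showed no such peak. There were 113 pairs of donors in 106 genes, with a median distance of 33 nt, against 3 nt for acceptors. Of these, 3 pairs lay 3 nt apart, and 49.6% of distances were multiples of 3. Cnbp, a zinc-finger protein that binds nucleic acids, used a donor 21 nt upstream for 33.8% and 31.8% of reads (698 and 239 reads). Rbm3, a cold-induced RNA-binding protein, used a donor 4 nt downstream for 39.3% and 36.2%. U2af2, the large subunit of the factor that recognises acceptors, had donors 12 nt apart, with the less used at 47.3% and 48.9%. Ezh2, the Polycomb methyltransferase, used a donor 27 nt upstream for 28.2% and 32.3%, and Hnrnpc one 39 nt upstream for 38.3% and 49.3%. Rpl38, a ribosomal protein, had the lowest share of these, 5.42% and 4.20%, on 100 and 89 reads.

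Alternative first exons were read from junctions that share an acceptor, where a listed transcript starts between the 2 donors and no known acceptor lies there. The upstream donor was not required to lie in a first exon. In a choice of Foxp1 it lay in an exon with its own known acceptor. Last exons were read in the same way, from transcript ends, and the downstream acceptor was not required to lie in a last exon. Such choices numbered 79 in 72 genes, and choices of last exon 40 in 37 genes. Lck encodes the kinase that starts T cell receptor signalling, and it is known to have a distal and a proximal promoter. The distal first exon, 15227 nt further upstream, had 1767 and 2174 reads, and the proximal one 205 and 180, or 10.4% and 7.65%. The less used donor took 32.9% and 32.5% in Ldb1, a LIM-domain-binding adaptor. It took 24.3% and 17.4% in Set, a histone chaperone. Satb1, a chromatin organiser of thymocytes, had 613 and 599 reads from its main donor and 39 and 51 from the next. Among choices of last exon, Srsf10, an SR-related splicing factor, used the minor acceptor, which was the more distant, for 31.3% and 30.3% of reads.

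Exons used one at a time were found in 10 pairs, 6 of them of equal length. A pair counted where both exons had known junctions to the same 2 flanking exons, no known junction to each other and at least 10 reads on each junction. Pairs of equal length are shown for 2 genes with the bases that differ in capitals, since they show how the alternatives differ over the same span.
Mapk9 first exon, 72 nt: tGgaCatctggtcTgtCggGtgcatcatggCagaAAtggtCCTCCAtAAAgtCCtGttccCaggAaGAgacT
Mapk9 second exon, 72 nt: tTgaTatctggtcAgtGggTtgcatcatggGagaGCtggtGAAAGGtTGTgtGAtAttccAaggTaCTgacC
U2af1 first exon, 67 nt: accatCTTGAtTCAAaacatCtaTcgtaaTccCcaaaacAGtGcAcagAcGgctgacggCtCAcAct
U2af1 second exon, 67 nt: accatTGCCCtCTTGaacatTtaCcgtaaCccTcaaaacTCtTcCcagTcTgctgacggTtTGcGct

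Mapk9 encodes the kinase JNK2, and its 2 exons are identical at 47 of 72 bases (65.3%). The second exon (chr11:49687766-49687837) was used in 79.7% of reads in each mouse. U2af1, the small subunit of the acceptor factor, has exons identical at 44 of 67 bases (65.7%). Its second exon (chr17:31788591-31788657) took 70.8% and 79.3%, and 9 and 13 reads joined the 2 exons to each other. Rab6, a Golgi GTPase, used its second exon at 82.6% and 86.0%, and Calu, the calcium-binding calumenin, at 50.3% and 49.6%. These shares use the mean of the 2 sides, which differed in Rab6 and U2af1. Upstream, the second exon of Rab6 had 89 and 165 reads against 7 and 3 for the first. Downstream, it had 20 and 37 against 16 and 30, nearer an even split. In U2af1 the reads were 98 and 185 against 52 and 75 upstream, and 55 and 122 against 11 and 5 downstream. The identity was 71.7% in Rab6 and 65.5% in Calu. Identity ranged from 61.6% (Ubr2) to 71.7% (Rab6) over the 6 pairs of equal length.

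Pairs of unequal length included 3 with known roles in lymphocytes or chromatin. Fyn is a Src-family kinase whose second exon, of 156 nt, marks the T cell form. That exon was used at 93.3% and 93.3%, with 53 and 94 reads into it, against 1 and 9 into the 165-nt first exon. Tcf3 encodes the E proteins E12 and E47 through 2 exons that each hold a basic helix-loop-helix domain. Its second exon, of 227 nt, took 71.1% (exact 95% interval 57.8 to 82.7%) and 55.0% (42.5 to 67.7%), and the intervals overlap. These shares use the mean of both sides. Reads into the second exon were 43 and 47, against 5 and 14 into the first. Reads out of the second exon were 38 and 24, against 28 and 44 out of the first. In mouse 2, the more used exon of Tcf3 thus changed with the side. H2afy used the 100-nt first exon of its pair for 89.6% and 93.1% of reads. The plot of exclusive exons shows that use ranged from a strong preference in Fyn and H2afy to an even split in Calu.

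**Figure D5:**
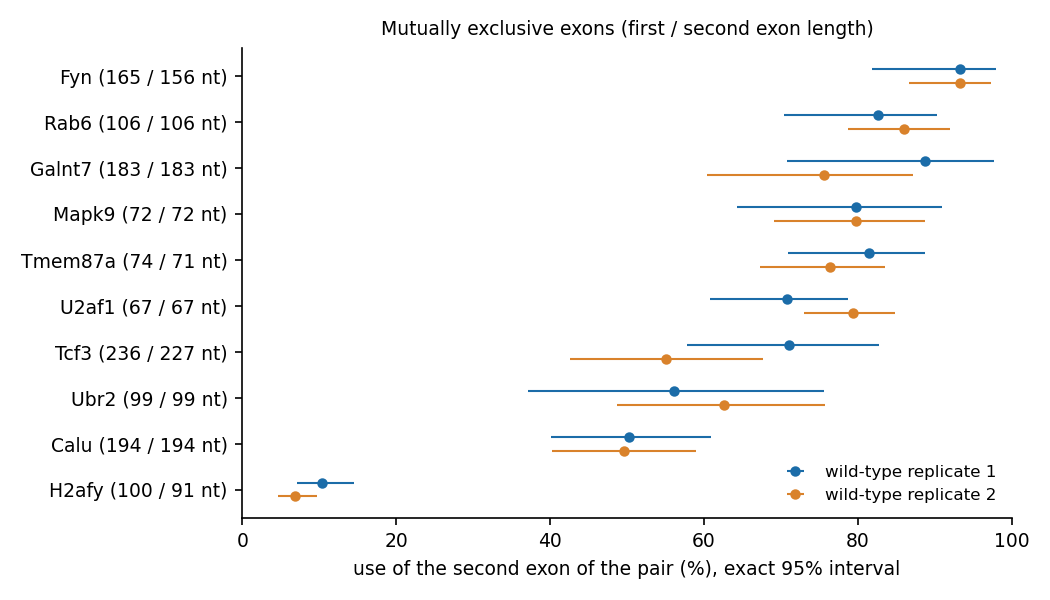
Use (%) of the second exon of each of the 10 mutually exclusive pairs in the 2 wild-type mice, with exact 95% binomial intervals; exon lengths are given beside each gene. Fyn is highest at 93.3% in both mice and H2afy lowest at 10.4% and 6.87%.

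The 2 mice gave similar inclusion for most exons. The median difference was 4.99 points over all 947 exons, and 252 differed by more than 10 points. Across exons, inclusion correlated at 0.891 between the mice. By Fisher's exact test, two-sided, 17 of 943 exons with at least 10 reads in each mouse differed after Benjamini-Hochberg adjustment at 0.05, or 1.8%, and 119 had an unadjusted p under that value. Inclusion was higher in mouse 1 for 12 of the 17 and in mouse 2 for 5. This test compares 2 libraries by their reads, with 1 mouse behind each, and not conditions. The count was 35 with the inclusion reads of both sides added, and 29 and 36 with the upstream or the downstream side alone.

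The Srsf3 exon described above, at 57.7% and 20.5%, and the Ccr9 exon, at 37.6% and 23.4%, had the smallest adjusted p, 2.37e-09 for each by Fisher's exact test. The 261-nt exon 4 of Ikzf1 followed, with inclusion of 95.8% and 77.7% and 8 and 70 skipping reads (adjusted p = 1.61e-06, Fisher's exact test). Cd74, the invariant chain of MHC class II, had a 192-nt exon at 62.0% and 16.3%, with 27 and 64 skipping reads (adjusted p = 2.21e-06, Fisher's exact test). Cd74 is a gene of antigen-presenting cells. The 6 B cell markers summed to 10.2 and 11.0 RPKM and the 6 myeloid markers to 35.5 and 36.1, of which Lyz2 held 30.6 and 30.4, while Mpo had 0.453 and 1.01 and Cd79a 0.748 and 1.05. The part of other cells in the Cd74 difference was not tested. Lsm14a, a P-body protein, had a 57-nt exon at 85.3% and 100%, with 20 and 0 skipping reads and a lower exact 95% limit of 97.1% in mouse 2 (adjusted p = 2.20e-04, Fisher's exact test). The differences ran in both directions among all called exons, although the first 4 named here were higher in mouse 1.

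Splice site choice was tested in the same way. Of 291 donor and acceptor pairs, 6 differed between the mice, or 2.06%, and 39 had an unadjusted p under 0.05, by Fisher's exact test. Anapc5, a subunit of the anaphase-promoting complex, used its less used acceptor, 39 nt downstream, for 35.4% and 23.1% of reads (314 and 208 reads). Srsf5, an SR protein, used a donor 126 nt upstream for 65.6% and 36.7% of the reads of the pair, on 42 and 29 reads. A further donor, 130 nt upstream, had 11 and 14 reads that do not enter these shares. Pdcd6ip, an ESCRT-associated protein, had 12 and 0 reads on its less used donor, and the 0 allows a share of up to 2.7% (exact 95% interval). Zc3h7a had the less used donor with 17 and 6 reads, and Orc4, an origin recognition subunit, had the less used acceptor with 9 and 35 reads. Among the 3-nt pairs, Traf7 was the one that differed, with 19 and 42 reads on the less used site.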

How the data were processed

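The deposited junction tables give raw read counts per exon-exon junction, with a known or putative status and a gene symbol set by the authors. The deposited expression tables, used for depth and markers, give read counts and RPKM values per transcript, which per the file headers the authors scaled by transcript length and mapped reads. The build is mm9 per the submitters' processing notes; the sources used here do not state the aligner, the overhang a junction read needed or strand handling.

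Both wild-type libraries were used. Events were built from junctions with at least 10 reads summed over them, with Python 3.11.15. Shares have exact Clopper-Pearson intervals at 95%. The mice were compared by Fisher's exact test (SciPy) with Benjamini-Hochberg adjustment at 0.05, for events with at least 10 reads in each library; the code was checked on simulated reads. Inclusion reads are the whole number nearest the mean of both sides. Exons were matched to GENCODE M21 (GRCm38) by gene and by exon and intron lengths, with no change of coordinates, and 18944 of 18994 gene symbols were matched. Alternatives were the read minimum, 1 side of an exon and 1 library.

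Genes were named as up to 10 per class by the reads of the less used form, events in listed splicing, T cell, actin and textbook genes, and up to 5 differing events by p, with the sixth splice site event added. Other named features (Thy1, Exoc4, Msi2, Dnmt1, Pcbp2 acceptors, Suz12, Dync1h1, Rrm1, junctions of 1 mouse) were chosen after their values were seen. The members and lists were chosen with earlier results of these data known.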

Additional observations from a re-analysis of the deposited data

How the results depend on the processing

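The counts follow the read minimum. With 5 or 20 summed reads, putative junctions numbered 3126 and 697, and exons skipped by them 1590 and 317; with 10 reads in each library, 515 putative junctions were kept. Rival sites with 20 reads on each junction numbered 191 (69 donors, 122 acceptors, 61 acceptors 3 nt apart). Without replicate 1 or 2, the ranges were 633 to 855 putative junctions, 250 to 352 putatively skipped exons, and 163 to 210 rival sites (58 to 75 donors, 105 to 135 acceptors, 56 to 70 acceptors 3 nt apart).

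Median inclusion over all, known-skip and putative-skip exons was 76.9, 46.0 and 83.2% from the upstream side, 76.6, 49.1 and 82.0% from the downstream side, and 72.8, 51.3 and 79.5% with 20 reads. Without a replicate it ranged from 74.5 to 74.7%, 52.4 to 53.0% and 79.8 to 80.8%. Of 104 named exons, 10 moved by over 20 points with 1 side; the cause was not tested.

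The plus-strand share of long skips, with settings chosen after seeing the data, was 77.0% with 5 reads, 89.2% with 20, 94.9% with 10 reads in each library, and 88.4 to 89.9% without a replicate. Exons that differed between the mice numbered 35 with both sides added, 29 upstream and 36 downstream. The other counts stayed within 1.5 times. No paired analysis was possible because 1 group, wild type, was used and no groups were compared. Depth limits events near 10 reads, whose intervals are wide.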
